A study of Mus musculus with 76 samples.

Results

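AMPA receptors are the ion channels that carry most fast excitatory transmission between neurons, and 9 of their genes were followed here through the forebrain of mouse embryos whose parents had been given the insecticide α-cypermethrin before mating. The genes were chosen by name: the 4 pore subunits Gria1, Gria2, Gria3 and Gria4, and the 5 auxiliary subunits Cacng2, Cacng4, Cacng5, Cacng7 and Cacng8. The choice was made with earlier results of these data known. The members were 9 of the 14823 genes in the deposited count table. Each matched 1 gene identifier, and all 9 passed the filter on low counts.

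RNA sequencing was done on 76 libraries of dorsal forebrain, the part that forms the cortex, from C57Bl/6J embryos of both sexes at embryonic day 16 (E16). The parents were dosed over 28 days and then paired, and α-cypermethrin is a pyrethroid that acts on voltage-gated sodium channels. In Ctrl (12 libraries) both parents had received the vehicle. The label gives the exposed parent and a dose of 0.3 or 10, with no unit. Only the father was exposed in Paternal_0.3Cyp (12 libraries) and Paternal_10Cyp (10), and only the mother in Maternal_0.3Cyp (12) and Maternal_10Cyp (8). Both parents were exposed, at equal doses, in Both_0.3Cyp (12) and Both_10Cyp (10). The embryos themselves were not dosed. The labels do not tie libraries to litters, so every p-value below measures the spread between these libraries, some of which may be littermates.

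An AMPA receptor is built from 4 pore subunits that together form a glutamate-gated cation channel. The subunit from Gria2 sets calcium entry: its RNA is edited at a glutamine codon in the pore loop, the Q/R site, and edited subunits make the channel nearly impermeable to calcium. The Cacng genes followed here code for transmembrane AMPA receptor regulatory proteins (TARPs). Several TARPs, though not all, bring receptors to the surface, anchor them at synapses and slow their closing. In the cortex the pore subunit genes are switched on as neurons mature, before most synapses form, while several TARP genes are also active in progenitors and glial precursors.

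The coding stretch around the Q/R site is shown for the 4 pore subunits because it is the part in which Gria2 differs functionally from the others once its RNA is edited, and because the genome carries the unedited glutamine codon in each. The sequences were read from GENCODE M21 transcripts (build GRCm38), 5′ to 3′ along the coding strand, and the Q/R codon is in capitals. Each stretch lies within 1 coding exon: exon 11 of 16 for Gria1 (chr11:57243064-57243119, plus strand), exon 11 of 16 for Gria2 (chr3:80706888-80706943, minus strand), exon 11 of 16 for Gria3 (chrX:41610235-41610290, plus strand) and exon 12 of 17 for Gria4 (chr9:4464114-4464169, minus strand).
Gria1: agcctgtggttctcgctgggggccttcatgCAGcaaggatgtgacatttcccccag
Gria2: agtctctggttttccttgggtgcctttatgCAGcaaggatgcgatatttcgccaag
Gria3: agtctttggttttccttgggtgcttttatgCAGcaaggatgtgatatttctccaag
Gria4: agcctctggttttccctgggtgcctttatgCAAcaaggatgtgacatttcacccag
Of the 56 bases, Gria3 shared 52 with Gria2 (92.9%), Gria4 shared 49 (87.5%) and Gria1 shared 45 (80.4%). Aligned to the Gria2 codon, the marked codon is codon 600 of the longest coding sequence of Gria1, 612 of Gria3 and 608 of Gria4. Gene-level counts carry no base calls, so editing itself was not analysed here.

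The pore subunit genes are long and spread over 4 chromosomes: Gria1 (ENSMUSG00000020524) at chr11:57011387-57330244, Gria2 (ENSMUSG00000033981) at chr3:80681450-80802835, Gria3 (ENSMUSG00000001986) at chrX:41400854-41678601 and Gria4 (ENSMUSG00000025892) at chr9:4417896-4796234, all on GRCm38. The TARP genes Cacng7 (ENSMUSG00000069806, chr7:3332955-3368221) and Cacng8 (ENSMUSG00000053395, chr7:3390683-3415648) are neighbours, as are Cacng4 (ENSMUSG00000020723, chr11:107732357-107794557) and Cacng5 (ENSMUSG00000040373, chr11:107874605-107915055). Cacng2 (ENSMUSG00000019146), which codes for stargazin, lies at chr15:77991748-78120028. No other gene of the count table overlaps any of the 9.

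Promoters are shown for 2 members that behaved differently: Gria2, lower than in Ctrl in all 6 exposed groups, and Cacng7, called in none. Both are the 250 bases before the RefSeq start of the gene on GRCm38.p6, 5′ to 3′ towards the gene. Capitals mark matches, on either strand, to any of 5 motifs searched: the Sp1 GC box GGGCGG, the NRF1 motif, the cAMP response element TGACGTCA, and the E-boxes CAGATG and CAGCTG. No 2 matches overlap in the windows shown.
Gria2 (chr3:80802836-80803085, minus strand): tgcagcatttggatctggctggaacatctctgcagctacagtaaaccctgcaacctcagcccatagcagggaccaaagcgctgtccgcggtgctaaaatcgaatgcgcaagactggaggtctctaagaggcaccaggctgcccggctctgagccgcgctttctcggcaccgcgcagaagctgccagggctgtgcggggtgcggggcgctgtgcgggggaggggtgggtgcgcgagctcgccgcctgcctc
Cacng7 (chr7:3332575-3332824, plus strand): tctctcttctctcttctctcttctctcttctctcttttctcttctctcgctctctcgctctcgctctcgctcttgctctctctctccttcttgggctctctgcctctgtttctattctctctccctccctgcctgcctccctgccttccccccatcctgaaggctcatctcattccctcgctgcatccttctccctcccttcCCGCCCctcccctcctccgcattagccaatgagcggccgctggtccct
The Cacng7 window held 1 GC box, which 32.7% of all 32851 promoters of the same length also held. The Gria2 window held none of the 5 motifs. GC content was 64.8% for Gria2 and 58% for Cacng7, against a median of 52.4% over all promoters. RefSeq promoters were matched for Gria2, Gria4, Cacng2, Cacng5, Cacng7 and Cacng8.

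The libraries held 17.7 to 41.4 M counts (median 19.2 M), and Both_10Cyp was sequenced more deeply, at 21.2 to 34.0 M. Markers of cortical projection neurons were present in every library, Tbr1 at 194 to 524 and Neurod2 at 211 to 670 normalised CPM (counts scaled to a common library total). The 4 libraries highest in embryonic globins relative to adult ones were Paternal_0.3Cyp replicates 3 and 4 and Both_10Cyp replicates 7 and 8, and 5 libraries stood out in markers of the diencephalon, the deeper forebrain next to the cortex: Ctrl replicate 3, Paternal_0.3Cyp replicates 4, 6 and 9, and Paternal_10Cyp replicate 1. In these bulk samples, fewer cells of a type and less RNA per cell cannot be told apart.

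The 9 genes differed widely in abundance in Ctrl. Per length (TPM, transcripts scaled to the length of all exons of a gene), Cacng4 was highest at 348 ± 27.9 (SD, n = 12) TPM and Cacng7 next at 278 ± 17.2 (SD, n = 12) TPM. Both TARPs stood above every pore subunit, and their ranges did not overlap each other or that of Gria1. Among the pore subunits Gria1 had 106 ± 15.9 (SD, n = 12) TPM, Gria2 46 ± 10.1 (SD, n = 12), Gria4 25.6 ± 4.7 (SD, n = 12) and Gria3 14.2 ± 2.48 (SD, n = 12). Per length, Gria1 was thus the highest pore subunit in Ctrl and Gria3, an X-linked gene, the lowest. By counts alone Gria2 was above Gria1, at 196 against 176 normalised CPM. The order of these 2 therefore rests on the annotated lengths, and the transcript forms present were not measured. Cacng8, the TARP best known from the hippocampus, stood at 78.5 ± 11.5 (SD, n = 12) TPM, between Gria1 and Gria2. Cacng2 had 30.8 ± 5.25 (SD, n = 12) TPM and Cacng5 had 14.7 ± 1.79 (SD, n = 12) TPM.

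**Figure D1:**
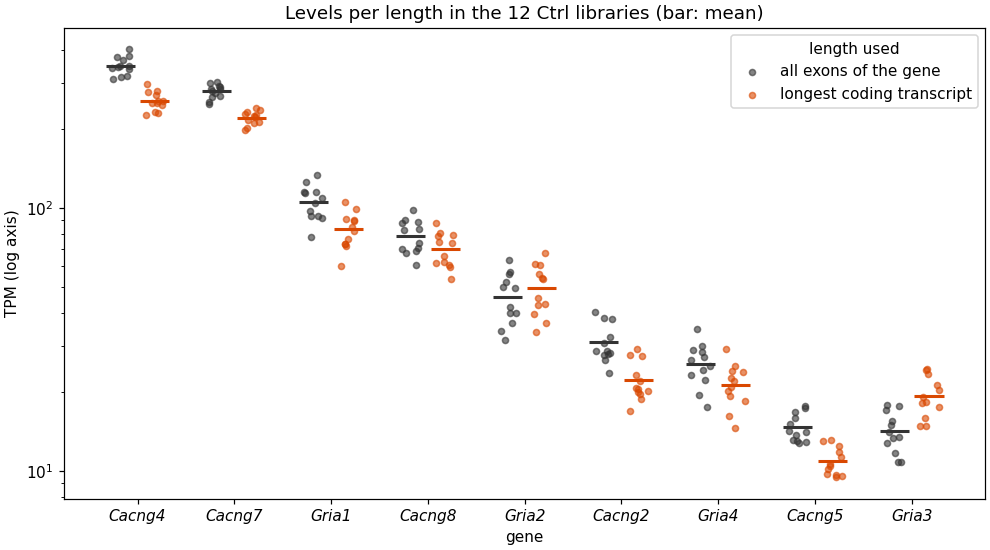
Levels per length of the 9 genes in the 12 Ctrl libraries (TPM, log axis), with the length taken from all exons of a gene or from its longest coding transcript; each point is a library and each bar a mean. Cacng4 and Cacng7 lie at or above 197 TPM in every library with either length, and Gria3 and Cacng5 exchange places.

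Neighbours in this order were not all separated. Cacng5 and Gria3 overlapped, with Cacng5 higher in 8 of 12 Ctrl libraries, and Cacng2 and Gria4 overlapped in range although Cacng2 was higher in each of the 12. The order also depended on the length used. With the longest coding transcript, Gria3 stood at 19.4 ± 3.42 (SD, n = 12) TPM, above Cacng5 at 11 ± 1.35 (SD, n = 12) TPM in every Ctrl library, while the top 5 kept their order. The ranges of Cacng4 and Cacng7 overlapped with that length, Cacng4 being higher in 11 of 12 libraries. Gria2 has a long annotated exon set (15548 bases, against a median of 4532 bases over the tested genes), which lowers its level per length relative to its counts.

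All 4 pore subunits were lower in offspring of exposed parents than in Ctrl. Gria2 fell in each of the 6 exposed groups and Gria3 likewise. Gria1 and Gria4 were lower in all 6 but called in 5, Both_10Cyp being the exception. Levels are given below as normalised CPM, which compares libraries for 1 gene, and differences as log2 fold changes from edgeR's quasi-likelihood test with Benjamini-Hochberg adjustment over the 14339 genes tested. All 6 comparisons share the same 12 Ctrl libraries, so they are not independent of each other.

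**Figure D2:**
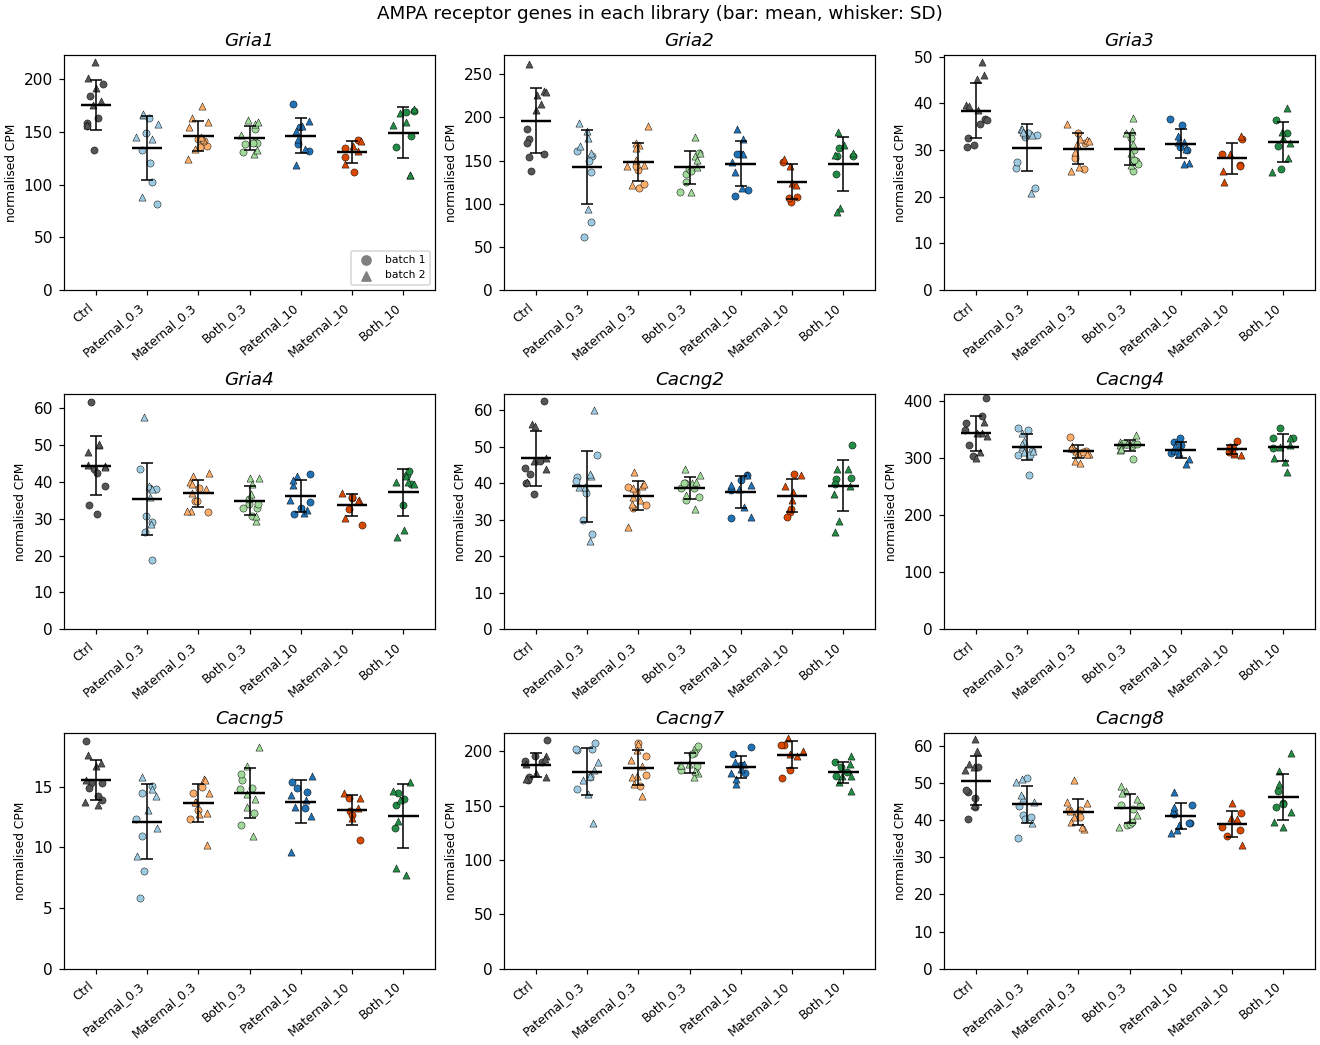
Normalised CPM of each gene in each of the 76 libraries, by group (the label's ending Cyp is left off); circles are batch 1, triangles batch 2, thick bars the mean and whiskers the SD. Gria2 averages 196 CPM in Ctrl and 126 to 148 CPM in the exposed groups, and Cacng7 averages 187 CPM in Ctrl and 181 to 197 CPM in the others.

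Gria2 showed the widest shift. In Ctrl its lowest, median and highest libraries had 138, 198 and 262 CPM. The same 3 values were 61.2, 157 and 193 in Paternal_0.3Cyp, 118, 144 and 189.5 in Maternal_0.3Cyp and 114, 142 and 177 in Both_0.3Cyp. At dose 10 they were 108, 153 and 187 in Paternal_10Cyp, 102, 123 and 152 in Maternal_10Cyp and 90, 156 and 184 in Both_10Cyp. Every exposed library lay below the Ctrl mean of 196 ± 37.9 (SD, n = 12) CPM, and 3 to 5 libraries per exposed group lay below the lowest Ctrl library, so the groups overlapped in their upper part. The log2 fold change was -0.45 ± 0.11 (SE; adjusted p = 0.0043) in Paternal_0.3Cyp, -0.43 ± 0.11 (SE; adjusted p = 0.007) in Maternal_0.3Cyp and -0.45 ± 0.11 (SE; adjusted p = 0.00716) in Both_0.3Cyp. It was -0.43 ± 0.12 (SE; adjusted p = 0.0108) in Paternal_10Cyp, -0.63 ± 0.13 (SE; adjusted p = 0.000213) in Maternal_10Cyp and -0.43 ± 0.12 (SE; adjusted p = 0.0329) in Both_10Cyp. In Maternal_10Cyp this is a level 35.4% lower than in Ctrl.

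Gria1, whose product forms calcium-permeable channels when it assembles without the Gria2 subunit, followed at a smaller size. Its lowest, median and highest Ctrl libraries had 133, 178 and 216 CPM, against 82, 144 and 167 in Paternal_0.3Cyp, 125, 143 and 174 in Maternal_0.3Cyp and 129, 139.7 and 161 in Both_0.3Cyp. At dose 10 the values were 119, 147 and 176 in Paternal_10Cyp, 112, 134 and 142 in Maternal_10Cyp and 109, 158 and 172 in Both_10Cyp. All 12 libraries of each dose 0.3 group were below the Ctrl mean, and Maternal_10Cyp had the narrowest range, its highest library lying below the Ctrl mean by more than 1 Ctrl SD. Gria1 fell by 0.38 on the log2 scale in Paternal_0.3Cyp (SE 0.08, adjusted p = 0.0025) and by 0.42 in Maternal_10Cyp (SE 0.09, adjusted p = 0.000401). The log2 fold change was -0.28 ± 0.08 (SE; adjusted p = 0.0141) in Maternal_0.3Cyp, -0.29 ± 0.08 (SE; adjusted p = 0.0127) in Both_0.3Cyp and -0.27 ± 0.09 (SE; adjusted p = 0.0246) in Paternal_10Cyp. In Both_10Cyp it was -0.24 ± 0.09 (SE; adjusted p = 0.076), which did not pass.

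Gria3 had a Ctrl range of 30.6 to 48.9 CPM and a Ctrl median of 37.5. Its lowest, median and highest values were 20.7, 33.2 and 34.6 in Paternal_0.3Cyp, 25.4, 31.5 and 35.6 in Maternal_0.3Cyp and 25.6, 29.7 and 36.9 in Both_0.3Cyp. At dose 10 they were 27, 31.2 and 36.6 in Paternal_10Cyp, 23.2, 28 and 32.9 in Maternal_10Cyp and 25.4, 32 and 39.1 in Both_10Cyp. Of the 64 exposed libraries only 1, in Both_10Cyp, was above the Ctrl mean. The log2 fold change ranged from -0.44 in Maternal_10Cyp (adjusted p = 0.000167) to -0.28 in Both_10Cyp (adjusted p = 0.0383), with SEs of 0.08 to 0.09.

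Gria4, whose subunit is prominent in early development and in interneurons, had lowest, median and highest Ctrl libraries at 31.4, 44.1 and 61.6 CPM. Maternal_10Cyp libraries had 28.3, 35 and 36.9 CPM and Both_0.3Cyp libraries 29.4, 34 and 41 CPM. Paternal_0.3Cyp was the most scattered group, at 18.9, 37 and 57.6 CPM, and holds both the lowest of the 76 libraries for Gria4 (replicate 4) and the second highest (replicate 9). Those are 2 of the 5 libraries high in diencephalon markers, and Ctrl replicate 3, which is the highest for Gria4 at 61.6 CPM, is another. The log2 fold change was -0.33 ± 0.10 (SE; adjusted p = 0.00923) in Paternal_0.3Cyp, -0.29 ± 0.10 (SE; adjusted p = 0.0247) in Maternal_0.3Cyp, -0.35 ± 0.10 (SE; adjusted p = 0.0103) in Both_0.3Cyp and -0.30 ± 0.10 (SE; adjusted p = 0.0266) in Paternal_10Cyp. It was -0.39 ± 0.11 (SE; adjusted p = 0.0028) in Maternal_10Cyp and -0.27 ± 0.10 (SE; adjusted p = 0.0846) in Both_10Cyp, the last not passing.

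The pore subunit pool was smaller in the exposed groups. The mean share of Gria2 in it was below Ctrl in every exposed group and that of Gria1 above, each by less than 1 Ctrl SD. Summed over Gria1 to Gria4, the level per length was 192 ± 29.2 (SD, n = 12) TPM in Ctrl and 131 ± 14.2 (SD, n = 8) TPM in Maternal_10Cyp, with means of 144 to 154 TPM in the other exposed groups. Gria1 made up 55.3% ± 2.8 (SD, n = 12) of that sum in Ctrl, Gria2 23.9% ± 2.99 (SD, n = 12), Gria4 13.3% ± 1.37 (SD, n = 12) and Gria3 7.41% ± 0.77 (SD, n = 12). The Gria2 share was 21.2% ± 2.06 (SD, n = 8) in Maternal_10Cyp and averaged 21.6% to 22.5% in the other exposed groups, each within 1 Ctrl SD of the Ctrl mean. Gria1's share averaged 55.7% to 57.4% in the exposed groups, also within 1 Ctrl SD. With lengths from the longest coding transcript the Gria2 share was 28.5% ± 3.27 (SD, n = 12) in Ctrl and 25.5% ± 2.37 (SD, n = 8) in Maternal_10Cyp. The Ctrl SD is the spread between single libraries, so means within 1 SD do not show that the shares were unchanged. Sums and shares are given as descriptions with no test.

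The TARP genes differed in how many groups called them. Cacng2 and Cacng8 were lower in all 6 groups and called in 5, at -0.19 to -0.37 in log2 where called. Cacng4 was lower in all but called in 4, at log2 fold changes of -0.09 to -0.13. Cacng5 was lower in all but called in 1, and Cacng7 was called in none. Cacng8 had lowest, median and highest Ctrl libraries at 40.3, 50.8 and 62 CPM. The values were 35.1, 44.5 and 51.4 in Paternal_0.3Cyp, 37.6, 42.3 and 50.8 in Maternal_0.3Cyp and 38.1, 43.5 and 49.2 in Both_0.3Cyp. At dose 10 they were 36.5, 40.6 and 47.7 in Paternal_10Cyp, 33.3, 39.2 and 44.6 in Maternal_10Cyp and 38.2, 44.6 and 58.1 in Both_10Cyp. Maternal_10Cyp lay lowest, 5 of its 8 libraries being below every Ctrl library, and Both_10Cyp was nearest to Ctrl.

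The log2 fold change of Cacng8 was -0.37 ± 0.07 (SE; adjusted p = 8.67e-05) in Maternal_10Cyp, the smallest adjusted p of any member in any comparison with Ctrl. It was -0.29 ± 0.06 (SE; adjusted p = 0.00231) in Paternal_10Cyp, -0.27 ± 0.06 (SE; adjusted p = 0.00401) in Maternal_0.3Cyp, -0.23 ± 0.06 (SE; adjusted p = 0.00786) in Both_0.3Cyp and -0.19 ± 0.06 (SE; adjusted p = 0.0154) in Paternal_0.3Cyp. In Both_10Cyp it was -0.14 ± 0.06 (SE; adjusted p = 0.128) and did not pass. Cacng8 has the shortest exon set of the 9 and the most GC-rich longest coding transcript (65.1% GC, against a median of 50.3% over the tested genes), whereas Gria2 is the most AT-rich (36.8% GC).

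Cacng2, or stargazin, the founding TARP, had 36.9, 45.1 and 62.4 CPM as its lowest, median and highest Ctrl libraries. Maternal_0.3Cyp had 28, 36.8 and 43.1 CPM and Maternal_10Cyp had 30.6, 36.4 and 42.4 CPM, and the highest library of each was below the Ctrl median. Paternal_0.3Cyp again spread most, at 24.2, 39.8 and 60.1 CPM. Its log2 fold change was -0.36 ± 0.09 (SE; adjusted p = 0.00639) in Maternal_0.3Cyp, -0.35 ± 0.10 (SE; adjusted p = 0.00488) in Maternal_10Cyp, -0.31 ± 0.10 (SE; adjusted p = 0.018) in Paternal_10Cyp, -0.27 ± 0.09 (SE; adjusted p = 0.0284) in Both_0.3Cyp and -0.25 ± 0.09 (SE; adjusted p = 0.031) in Paternal_0.3Cyp. The value in Both_10Cyp, -0.25 ± 0.10 (SE; adjusted p = 0.0852), did not pass.

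Cacng4, the most abundant member per length, had a Ctrl range of 300.3 to 405 CPM around a median of 345. Maternal_0.3Cyp libraries ran from 292 to 337 CPM and Maternal_10Cyp libraries from 306 to 329 CPM, so most exposed libraries lay inside the Ctrl range. The fall was small but the spread was too: -0.13 ± 0.04 (SE; adjusted p = 0.0084) in Maternal_0.3Cyp, -0.12 ± 0.04 (SE; adjusted p = 0.0109) in Maternal_10Cyp, -0.12 ± 0.04 (SE; adjusted p = 0.02) in Paternal_10Cyp and -0.10 ± 0.04 (SE; adjusted p = 0.0276) in Paternal_0.3Cyp, as log2 fold changes. The values in Both_0.3Cyp (-0.09 ± 0.04 (SE; adjusted p = 0.053)) and Both_10Cyp (-0.10 ± 0.04 (SE; adjusted p = 0.0732)) did not pass.

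Cacng5, a TARP that is also found in glia, was the member with the fewest counts, at 110 to 532 per library. It fell in Paternal_0.3Cyp, with a log2 fold change of -0.35 ± 0.10 (SE; adjusted p = 0.00947), from a Ctrl range of 13.5 to 18.7 CPM to 5.81 to 15.8 CPM. The lowest libraries of that group were replicates 4 and 3, at 5.81 and 8.06 CPM, both high in embryonic globins. Without the globin-high libraries the log2 fold change of Cacng5 was -0.24 (adjusted p = 0.0354), and leaving out the diencephalon-high ones gave -0.26 (adjusted p = 0.0691), which did not pass. In the other groups it lay at -0.30 ± 0.11 (SE; adjusted p = 0.0682) in Both_10Cyp, -0.25 ± 0.11 (SE; adjusted p = 0.0744) in Maternal_10Cyp, -0.18 ± 0.10 (SE; adjusted p = 0.177) in Maternal_0.3Cyp, -0.16 ± 0.11 (SE; adjusted p = 0.265) in Paternal_10Cyp and -0.10 ± 0.10 (SE; adjusted p = 0.472) in Both_0.3Cyp. The 95% intervals of the last 3 include 0.

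Cacng7, the gene next to Cacng8, was the 1 member called in no group. Its lowest, median and highest Ctrl libraries had 174, 189 and 210.4 CPM, against 175, 199 and 212 in Maternal_10Cyp, 177, 187 and 205 in Both_0.3Cyp and 163, 179 and 196 in Both_10Cyp. In the remaining groups the values were 134, 180.2 and 208 in Paternal_0.3Cyp, 158, 182 and 208 in Maternal_0.3Cyp and 169.7, 186 and 204 in Paternal_10Cyp. Below the lowest Ctrl library lay 4 of 12 libraries in Paternal_0.3Cyp, 3 of 12 in Maternal_0.3Cyp, 1 of 10 in Paternal_10Cyp and 2 of 10 in Both_10Cyp, and 1 Maternal_10Cyp library lay above the highest. Its log2 fold change was 0.08 (95% interval -0.02 to 0.17) in Maternal_10Cyp and -0.05 (95% interval -0.13 to 0.04) in Paternal_0.3Cyp, the extremes over the 6 comparisons, and adjusted p-values ran from 0.203 to 0.974. The intervals in Maternal_10Cyp of Cacng7 and Gria2 (-0.88 to -0.37) did not meet; the difference between the 2 genes was not tested.

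**Figure D3:**
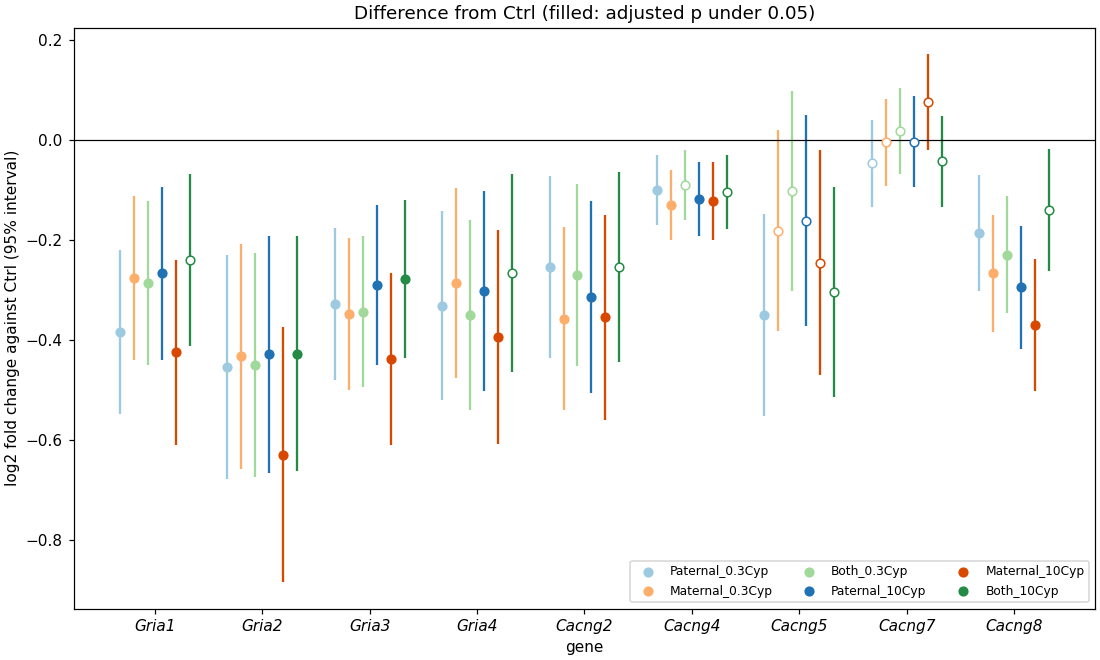
Log2 fold change of each gene in each exposed group against Ctrl, with its 95% interval; filled points have an adjusted p under 0.05 (edgeR). The 4 pore subunits, Cacng2 and Cacng8 lie at -0.14 to -0.63, Cacng4 at -0.09 to -0.13, Cacng5 at -0.10 to -0.35, and Cacng7 within 0.08 of 0.

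Counted per group, 8 of the 9 genes were called lower in Paternal_0.3Cyp, where 27.6% of all tested genes were called in either direction and 12.2% were called lower. In Maternal_0.3Cyp it was 7 of 9 against 23.7% (12.8% lower), and in Both_0.3Cyp 6 of 9 against 22.3% (11.8% lower). In Paternal_10Cyp it was 7 of 9 against 21.5% (10.8% lower). In Maternal_10Cyp 7 of 9 were called against 40.8% (20.4% lower), the largest share of all genes called in any of the 6. In Both_10Cyp 2 of 9 were called, Gria2 and Gria3, against 3.91% (1.58% lower). These counts are descriptions, since the 9 genes were chosen with earlier results of these data known. No member was called higher in any of the 6, where 15.4%, 10.9%, 10.5%, 10.7%, 20.4% and 2.34% of all genes were. The median log2 fold change over the 9 genes was -0.33, -0.28, -0.27, -0.29, -0.37 and -0.25 in that order, and over all tested genes it lay between -0.01 and 0.01. In a joint test of all 6 groups, 7 of 9 passed (21.7% of all genes), with adjusted p = 0.073 for Cacng5 and 0.389 for Cacng7.

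Some of these counts rest on few libraries. Without the 4 libraries high in embryonic globins, 6 of 9 were called in Paternal_0.3Cyp, where the genes called in all went from 3961 to 2112. The calls lost were Cacng2, at a log2 fold change of -0.18 (adjusted p = 0.123), and Cacng4, at -0.07 (adjusted p = 0.132). In Both_10Cyp 0 of 9 were then called, with 10 genes called in all in place of 561. Gria2 was at -0.29 (adjusted p = 0.278) and Gria3 at -0.22 (adjusted p = 0.407). In Both_10Cyp leaving out single libraries gave 0 to 7 member calls, and 29 to 1625 over all genes. Without the 5 libraries high in diencephalon markers, 4 of 9 were called in both Paternal_0.3Cyp and Paternal_10Cyp, with 2175 genes in all in place of 3961 and 1770 in place of 3076. In Paternal_0.3Cyp the calls lost were Cacng2 (-0.23, adjusted p = 0.0589), Cacng4 (-0.04, adjusted p = 0.361), Cacng5 and Cacng8 (-0.12, adjusted p = 0.168). In Paternal_10Cyp they were Gria1 (-0.24, adjusted p = 0.0518), Gria4 (-0.23, adjusted p = 0.0566) and Cacng2 (-0.24, adjusted p = 0.0531). In the joint test Cacng4 was lost as well (adjusted p = 0.0695). Fitted on Paternal_0.3Cyp and Ctrl alone, the fold changes were the same to 2 decimals for Gria1 to Gria4 but 0 members and 0 of all genes passed. The smallest adjusted p among the members was 0.0845.

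The dose comparisons used no Ctrl library, and no member was called in any of them. For the father, Paternal_10Cyp against Paternal_0.3Cyp called 0.0628% of all genes, and the Gria2 difference was 0.02 (95% interval -0.21 to 0.26) in log2. For the mother, where 0% of genes were called, it was -0.20 (95% interval -0.45 to 0.06), and Gria1 differed by -0.15 (95% interval -0.33 to 0.04). For both parents, where 0.00697% were called, the Gria2 difference was 0.02 (95% interval -0.21 to 0.26). These intervals do not show that the doses act alike: for Gria2 in maternal exposure the interval reaches -0.45 at the higher dose. At an unadjusted p under 0.05, 0 of 9 members passed in each of the 3 comparisons, beside 8.72%, 9% and 2.89% of all genes, so these counts are near the background.

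The parent comparisons also called no member. Maternal_0.3Cyp against Paternal_0.3Cyp called 0.00697% of genes, with a Gria2 difference of 0.02 (95% interval -0.20 to 0.25) in log2 and a Cacng5 difference of 0.17 (95% interval -0.03 to 0.37). Maternal_10Cyp against Paternal_10Cyp called 0% of genes, with differences of -0.20 (95% interval -0.46 to 0.06) for Gria2 and -0.07 (95% interval -0.21 to 0.06) for Cacng8. In both, 0 of 9 members reached an unadjusted p under 0.05, beside 4.06% and 5.01% of all genes.

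At dose 10 the effects of the parents did not add up for 6 members. Their falls in Both_10Cyp were smaller than the sum of the falls from each parent alone, which was tested as the difference between the level in Both_10Cyp and that sum on the log2 scale. The test called 6 of 9 members, all in the direction of a smaller fall, against 27.2% of all genes called in either direction and 14% in that direction. Ctrl enters this difference with a plus sign, so a gene about equally lower in every dose 10 group gives a value above 0. For members already lower than Ctrl the direction is thus not a separate result. The difference was 0.63 ± 0.18 (SE; adjusted p = 0.0084) for Gria2, 0.52 ± 0.09 (SE; adjusted p = 0.000659) for Cacng8, 0.45 ± 0.13 (SE; adjusted p = 0.00921) for Gria1 and 0.45 ± 0.12 (SE; adjusted p = 0.00599) for Gria3. It was 0.43 ± 0.15 (SE; adjusted p = 0.0268) for Gria4 and 0.41 ± 0.14 (SE; adjusted p = 0.0268) for Cacng2. For Cacng4 it was 0.14 ± 0.06 (SE; adjusted p = 0.0559), for Cacng5 0.10 ± 0.16 (SE; adjusted p = 0.654) and for Cacng7 -0.12 ± 0.07 (SE; adjusted p = 0.191), none of which passed.

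At dose 0.3 the differences were above 0 for all 9 members but none passed: 0.44 ± 0.16 (SE; adjusted p = 0.1) for Gria2, 0.37 ± 0.12 (SE; adjusted p = 0.0783) for Gria1 and 0.43 ± 0.14 (SE; adjusted p = 0.0842) for Cacng5, with 0% of all genes called. At an unadjusted p under 0.05, 7 of 9 members passed, beside 25.5% of all genes, and limma and DESeq2 each called 1 member. Put plainly, Gria2 in Both_0.3Cyp averaged 142 ± 19 (SD, n = 12) CPM, beside 143 ± 42.5 (SD, n = 12) with the father alone and 148 ± 21.8 (SD, n = 12) with the mother alone. These tests use the same Ctrl libraries and exposed groups as the comparisons above and are not independent of them.

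Of the members, 2 differed between the labelled batches. Batch 2 held 42 libraries and batch 1 held 34, and each group has both. Across groups, Gria2 was higher in batch 2 by 0.23 ± 0.06 (SE; adjusted p = 0.00537) in log2 and Cacng7 was lower, at -0.07 ± 0.02 (SE; adjusted p = 0.043), with 25% of all genes called (12.7% higher, 12.3% lower) and no other member. Within batch 2 the number of members called lower was 3 in Paternal_0.3Cyp, 5 in Maternal_0.3Cyp, 4 in Both_0.3Cyp, 5 in Paternal_10Cyp, 5 in Maternal_10Cyp and 6 in Both_10Cyp, against 16.6%, 21.1%, 10.9%, 18.6%, 33.2% and 18.4% of all genes. Within batch 1 it was 0 in all 6, against 0% to 0.133% of all genes.

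The direction was nevertheless the same in both batches for 8 members: Gria1, Gria2, Gria3, Gria4, Cacng2, Cacng4, Cacng5 and Cacng8 had negative log2 fold changes in all 6 comparisons within each batch. For Gria2 these ran from -0.11 to -0.50 within batch 1 (median -0.30) and from -0.49 to -0.75 within batch 2 (median -0.59). For Gria3 the medians were -0.20 and -0.46, and for Gria4 they were -0.30 and -0.36. Unadjusted, 7 of 9 members passed 0.05 within batch 1 in both Paternal_0.3Cyp and Maternal_10Cyp, and 0 did in Both_10Cyp, beside 19.7%, 21.8% and 2.86% of all genes. The difference between the batches was itself tested, and no member was called for any group, beside 0% to 0.00697% of all genes. The lowest adjusted p was 0.319, for Gria3. With so few genes called, this count is at the background and does not show that the batches agree. With batch 1 fitted on its own, 1 member was called in 1 group, Maternal_10Cyp, where 465 genes were called in all in place of 5856. That fit called 187 genes in Paternal_10Cyp, 4 in Paternal_0.3Cyp and 0 in the other groups.

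**Figure D4:**
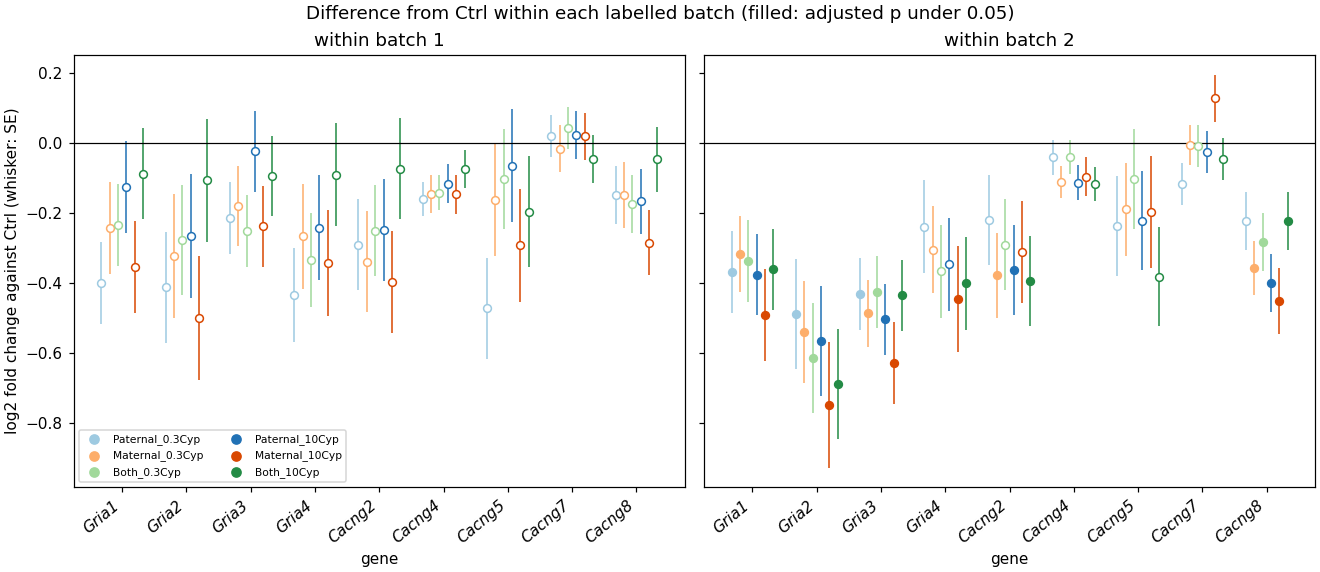
Log2 fold change against Ctrl within each labelled batch, with its SE; filled points have an adjusted p under 0.05. Within batch 1 no point is filled, and within batch 2 Gria1, Gria2 and Gria3 are filled in all 6 groups.

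No difference between the sexes passed for a member. Male against female embryos (40 and 36 libraries) called 0 of 9, beside 0.0907% of all genes (0.0418% higher and 0.0488% lower in males), and the Gria2 difference was 0.03 (95% interval -0.10 to 0.16) in log2. Within females the Gria2 fold changes ran from -0.69 to -0.40 and within males from -0.58 to -0.36. The sex by exposure term was called for no member in any group, beside 0% to 0.00697% of all genes. That count is at the background and does not show that exposure acts alike in both sexes. The X-linked Gria3 differed by 0.02 (95% interval -0.06 to 0.11) between the sexes.

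Intermediate progenitor and neuron maturation markers also differed from Ctrl. Intermediate progenitor markers such as Eomes and Neurog2 were called higher in every exposed group, 8 of 9 in Paternal_0.3Cyp, Maternal_0.3Cyp and Maternal_10Cyp, 6 in Both_0.3Cyp, 4 in Paternal_10Cyp and 2 in Both_10Cyp. In the same order of groups, 15.4%, 10.9%, 20.4%, 10.5%, 10.7% and 2.34% of all genes were called higher. The summed level of the intermediate progenitor markers ran from 468 to 888 CPM in Ctrl and from 781 to 959 CPM in Maternal_10Cyp. Radial glia markers were called higher for 0 to 6 of 12 over the 6 groups, and lower for 0 to 1. Neuron maturation markers such as Syt1, Map2 and Rbfox3 were called lower, 6 of 9 in Maternal_10Cyp and 1 of 9 in Both_10Cyp, and summed to 2919 to 3955 CPM in Ctrl against 2722 to 3169 CPM in Maternal_10Cyp. Oligodendrocyte precursor markers were called lower for 7 of 8 in Maternal_10Cyp and striatal neuron markers for 5 of 10, beside 20.4% of all genes lower and 20.4% higher. Cortical projection neuron markers were called lower for 2 of 10 and higher for 2 of 10 there, as often as all genes. None of the markers in these lists was at 0 in any library.

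The ratio of the summed progenitor markers (radial glia and intermediate progenitors) to the summed maturation markers was high in the libraries with the lowest Gria1 and Gria2. On a log2 scale it averaged -0.63 ± 0.29 (SD, n = 12) in Ctrl and -0.06 ± 0.16 (SD, n = 8) in Maternal_10Cyp. Paternal_0.3Cyp replicate 4 had the highest ratio of all, 0.95, and the lowest Gria2 (61.2 CPM), Gria1 (82.0 CPM), Gria4 (18.9 CPM), Cacng4 and Cacng5 of the 76 libraries. Both_10Cyp replicates 7 and 8, at 0.53 and 0.42, had 94.5 and 90.0 CPM of Gria2, against a median of 156 in their group. These are among the libraries high in embryonic globins, which are normally replaced by adult globins as an embryo ages. Cacng7 was not lowest there: Paternal_0.3Cyp replicate 4 had 165 CPM of it, and the lowest Cacng7, 134 CPM, was in replicate 8 of that group, which also had the lowest Gria3 and Cacng2.

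**Figure D5:**
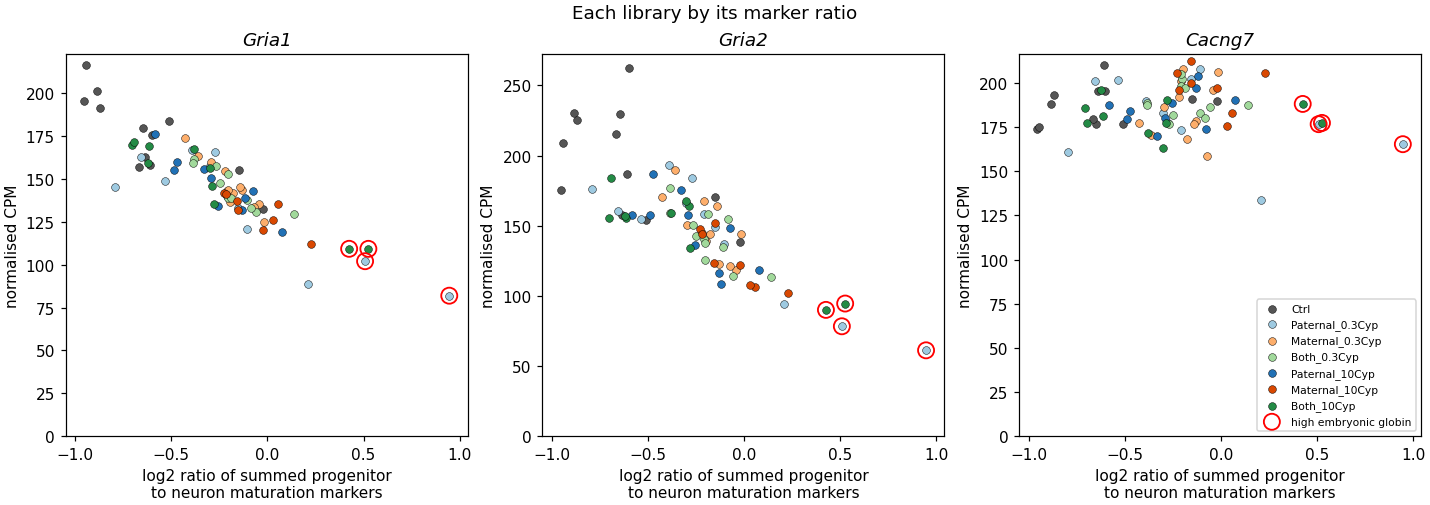
Normalised CPM of Gria1, Gria2 and Cacng7 in each of the 76 libraries against the log2 ratio of summed progenitor to neuron maturation markers; red rings mark the 4 libraries high in embryonic globins. Gria1 and Gria2 go down from left to right, to 82.0 and 61.2 CPM at a ratio of 0.95, while Cacng7 stays between 134 and 212 CPM.

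When this marker ratio was added to the model as a covariate, an alternative chosen after seeing the data, no member was called in any comparison with Ctrl. Over all genes that fit called 0 in each dose 0.3 group, 156 in Paternal_10Cyp, 36 in Maternal_10Cyp and 10 in Both_10Cyp. The absence of member calls is therefore near the background. The Gria2 log2 fold change in Maternal_10Cyp went from -0.63 to -0.18 (adjusted p = 0.168), that of Gria3 to -0.23 (adjusted p = 0.0874) and that of Cacng8 to -0.18 (adjusted p = 0.0698), while Gria4 and Cacng2 came to 0.03 and 0.02. In the non-additivity test at dose 10 Cacng8 alone was still called, at 0.33 (adjusted p = 0.0149), with 258 genes called in all in place of 3904. The ratio is itself made of genes that differ between the groups, so the exposure and the cell make-up or age of the tissue cannot be told apart this way.

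The wider receptor machinery followed lists of 57 other genes. Among 10 further auxiliary subunits, 7 were called lower in Maternal_10Cyp and 1 in Both_10Cyp, with 5 to 7 in the other groups and none higher. Of all genes, 20.4% were called lower and 20.4% higher in Maternal_10Cyp, 1.58% lower in Both_10Cyp and 10.8% to 12.8% lower in the other groups. Shisa6, which keeps receptors from desensitising, had a log2 fold change of -0.70 ± 0.13 (SE; adjusted p = 0.000116) in Maternal_10Cyp, from 29 ± 6.63 CPM in Ctrl to 17.7 ± 2.87. Shisa7 was at -0.52 ± 0.11 (SE; adjusted p = 0.000397), Prrt2 at -0.52 ± 0.13 (SE; adjusted p = 0.00104) and Prrt1 at -0.42 ± 0.12 (SE; adjusted p = 0.0037). Prrt1, an AMPA receptor associated protein, was the one also called in Both_10Cyp, at -0.40 ± 0.11 (SE; adjusted p = 0.0325). In Maternal_10Cyp the pore subunits lay at -0.39 to -0.63.

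Of 6 genes listed for their part in receptor assembly and export, whether they promote or limit it, 2 were called lower and 1 higher in Maternal_10Cyp. That share is near the 40.8% of all genes. Frrs1l, an endoplasmic reticulum protein needed for receptor assembly, was at -0.31 ± 0.08 (SE; adjusted p = 0.0014) in log2 and Abhd6 at -0.17 ± 0.07 (SE; adjusted p = 0.0469), while the export receptor Cnih1 rose by 0.22 ± 0.06 (SE; adjusted p = 0.00269). Cpt1c, at -0.12 ± 0.07 (SE; adjusted p = 0.122), did not pass. The 3 genes of the RNA editing enzyme family, Adar, Adarb1 and Adarb2, were each called lower in 5 of the 6 groups. None was called in Both_10Cyp. Of all genes, 10.8% to 20.4% were called lower in those 5 groups and 1.58% in Both_10Cyp. Editing activity was not measured for any of the 3. Adarb1, the enzyme that edits the Q/R codon of Gria2, went from 42.1 ± 3.66 CPM in Ctrl to 31.8 ± 3.68 in Maternal_10Cyp, a log2 fold change of -0.40 ± 0.09 (SE; adjusted p = 0.000359). Adar was at -0.37 ± 0.08 (SE; adjusted p = 0.000604) and Adarb2 at -0.49 ± 0.15 (SE; adjusted p = 0.00696).

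Among 16 scaffold and trafficking genes, 10 were called lower and 1 higher in Maternal_10Cyp, and 0 were called in Both_10Cyp. Of all genes, 20.4% were called lower and 20.4% higher in Maternal_10Cyp, and 3.91% were called in Both_10Cyp, so the 0 there is near the background. Dlg2, which codes for a postsynaptic scaffold of the same family as the main scaffold of excitatory synapses, had the largest fall of the 4 named by the lowest joint p, at -0.72 ± 0.15 (SE; adjusted p = 0.000205) in log2. Iqsec1 was at -0.35 ± 0.07 (SE; adjusted p = 0.000214) and Snx27, which returns receptors from endosomes to the surface, at -0.25 ± 0.06 (SE; adjusted p = 0.00054). The small GTPase gene Rab8a rose instead, by 0.30 ± 0.06 (SE; adjusted p = 0.000146). Of 11 kinase and phosphatase genes, 8 were called lower and 1 higher. Prkca was at -0.55 ± 0.10 (SE; adjusted p = 8.67e-05), Camk2a at -0.51 ± 0.12 (SE; adjusted p = 0.000589) and Ppp3ca at -0.26 ± 0.06 (SE; adjusted p = 0.000453), and Ppp1cc rose by 0.26 ± 0.06 (SE; adjusted p = 0.000342).

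Of 10 secreted and surface proteins that cluster the receptor, 7 were called lower in Maternal_10Cyp and 2 in each paternal group. Of all genes, 20.4% were called lower in Maternal_10Cyp, 12.2% in Paternal_0.3Cyp and 10.8% in Paternal_10Cyp, so the paternal counts are near the background. Lrrtm2, a postsynaptic adhesion protein, was at -0.52 ± 0.11 (SE; adjusted p = 0.000376) in log2, Olfm3 at -0.73 ± 0.23 (SE; adjusted p = 0.00799), Nptx2 at -0.39 ± 0.15 (SE; adjusted p = 0.0278) and Olfm1 at -0.19 ± 0.06 (SE; adjusted p = 0.0103). Cacng1, a calcium channel subunit of muscle that belongs to the Cacng family without being a TARP, was barely detected, at 0.748 ± 0.221 CPM in Ctrl, and was called in no group (0.08 ± 0.24 (SE; adjusted p = 0.806) in Maternal_10Cyp).

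Across the 76 libraries, with group, batch and sex means removed, the pore subunits varied together. The 6 pairs among them had Pearson r of 0.49 to 0.84 (Spearman rho 0.55 to 0.84), the 8 pairs with Cacng7 had r of -0.08 to 0.27 (rho -0.11 to 0.17), and the other 22 pairs had r of 0.18 to 0.84. These are descriptions, since all genes of a library share its dissection and depth. The genes most like a member were named as up to 3 with the highest r among 12796 genes. For Gria1 they were Map9 (r = 0.93), Ids (0.92) and Grm5 (0.92), and for Gria2 they were Nyap2 (0.87), Tub (0.87) and Tspoap1 (0.86). For Gria3 they were Plcb1 (0.86), Chl1 (0.85) and Srgap2 (0.85), and for Gria4 Scn3b (0.93), Agap2 (0.93) and Rims3 (0.91). Among the TARPs, Cacng2 was closest to Napb (0.90), Sdc3 (0.90) and Tmem181a (0.89), and Cacng8 to Gprin1 (0.80) and Ppfia3 (0.78). Cacng4 was closest to Camk2n2 (0.77), Mapre3 (0.76) and Slc27a4 (0.75), and Cacng5 to Mapt (0.83), Camk2b (0.82) and Diras2 (0.80). For Cacng7 the nearest were Ankrd13b (0.78), Bap1 (0.76) and Nkain1 (0.75). No gene named here was nearest to more than 1 member.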

How the data were processed

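Per the labels, RNA of 76 embryonic dorsal forebrains was extracted with a kit and sequenced by a provider. The deposited table holds estimated counts per gene, whole as deposited, which the authors produced from reads trimmed by Trim Galore (version 0.5.0) and quantified by Salmon (version 1.10.1), with mm10 as the build named, per the submitters' processing notes. All 14823 genes had at least 10 counts in at least 3 libraries. The 9 members and all lists were chosen with earlier results of these data known.

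Counts of all 76 libraries were fitted together in edgeR 4.0.16 (R 4.3.3) with TMM scaling, terms for group, batch and sex, and the robust quasi-likelihood test, 2-sided. The default expression filter by group kept 14339 genes. P-values were adjusted by Benjamini-Hochberg over these genes, and called means an adjusted p under 0.05. Non-additivity is the log2 level with both parents exposed plus that of Ctrl, minus those with each parent alone. The joint test asks whether any exposed group differs from Ctrl. TPM used GENCODE M21 exon lengths. Every member was named, and from each other list up to 4 genes with the lowest p in the joint test. Likeness used log2 CPM residuals (prior count 2) of genes with a mean of at least 1 CPM, and 1 of the genes so chosen is not reported here. Libraries high in embryonic globins or diencephalon markers lay more than 3 median absolute deviations above the median of all libraries. Alternatives used limma 3.58.1, DESeq2 1.42.0 and sva 3.50.0. Litters are not labelled and editing was not analysed here.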

Additional observations from a re-analysis of the deposited data

Results flagged for a closer look

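Cacng5 in Paternal_10Cyp replicate 5 was 9.59 CPM, the lowest of 10 libraries. The other 9 lay between 12.6 and 15.9 CPM, and its gap to the nearest was 0.48 of the group's range. Of the 27 sets of 1 gene in 1 group of 8 or 10 libraries that were examined, this was the only one with a library so far from the rest, and chance gives about 1 in 20.

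The effect of exposing both parents at dose 10 differed from the sum of the single-parent effects for 6 members, by the interaction term in edgeR. On the log2 scale the difference was 0.63 for Gria2, 0.52 for Cacng8, 0.45 for Gria1 and for Gria3, 0.43 for Gria4 and 0.41 for Cacng2, each with a smaller fall in Both_10Cyp than that sum. Both_10Cyp was also the group sequenced most deeply, with a lowest total of 21.2 M counts; the part of depth in this difference was not tested.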

How the results depend on the processing

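Of 1177 gene values refitted under the alternatives listed at the outset, 926 kept their direction and side of the threshold, 234 kept direction only and 17 turned. Under DESeq2, DESeq2's size factors, no filter and no sex term, all 50 called member values stayed called in the same direction. The cause of the changes below was not tested.

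The number of members called against Ctrl was 8 in Paternal_0.3Cyp, 7 in Maternal_0.3Cyp, 6 in Both_0.3Cyp, 7 in Paternal_10Cyp, 7 in Maternal_10Cyp and 2 in Both_10Cyp, 7 in the joint test and 6 for non-additivity at dose 10. With 2 surrogate variables, and with the progenitor to maturation ratio (added after seeing the data), it was 0 in all 6 groups and the joint test and 1 for non-additivity; all genes called in Maternal_10Cyp went from 5856 to 19 and 36. With the globin ratio as a covariate it was 0 in Paternal_0.3Cyp (44 genes in all, against 3961) and Both_0.3Cyp, 2 in Maternal_0.3Cyp, 4 in Maternal_10Cyp, 1 in Both_10Cyp, 3 for non-additivity and 2 jointly. Over all genes that fit called 10 in Both_0.3Cyp (against 3202), 170 in Maternal_0.3Cyp (3404) and 132 in Both_10Cyp (561). It called 2585 for non-additivity (3904) and 578 jointly (3106). Batch 1 alone gave 0 in 5 groups and jointly, and 1 in Maternal_10Cyp and for non-additivity. Over all genes it called 465 in Maternal_10Cyp, 494 for non-additivity and 0 jointly. Batch 2 alone gave 3 in Paternal_0.3Cyp, 4 in Paternal_10Cyp, 5 in Both_10Cyp, 2 for non-additivity and 3 jointly. Over all genes it called 1313 in Paternal_0.3Cyp (against 3961), 553 for non-additivity (3904) and 855 jointly (3106). Without diencephalon-high libraries it was 4 in Paternal_0.3Cyp and in Paternal_10Cyp, and with only the groups compared 0 in Paternal_0.3Cyp, where 0 of all genes were called against 3961. In Both_10Cyp it was 0 without the batch term or the globin-high libraries, and 1 with GC and length offsets. Non-additivity at dose 0.3 gave 1 member in limma and 1 in DESeq2, against 0. Over all genes, Both_10Cyp called 561, against 10 without globin-high libraries, 55 without the batch term, 954 in limma, 1034 in DESeq2 and 2142 in batch 2 alone.

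Leaving out single libraries gave 5 to 8 members in Paternal_0.3Cyp, 6 to 7 in Maternal_0.3Cyp, 5 to 7 in Both_0.3Cyp, 3 to 7 in Paternal_10Cyp, 6 to 7 in Maternal_10Cyp, 0 to 7 in Both_10Cyp, 4 to 7 jointly, 0 to 4 for non-additivity at dose 0.3, 4 to 7 at dose 10, and 0 to 0 in the dose and parent comparisons. Over all genes the same fits called 2262 to 4960, 2166 to 4103, 2042 to 4013, 1709 to 3840, 5056 to 6235 and 29 to 1625 in the 6 groups, 1866 to 4565 jointly, and 0 to 1166 and 2997 to 4704 for non-additivity at dose 0.3 and 10. Without Ctrl replicate 7 it was 5 in Paternal_0.3Cyp, 4 in Paternal_10Cyp, 0 in Both_10Cyp and 4 jointly. Without Ctrl replicate 3 it was 3 in Paternal_10Cyp, 0 in Both_10Cyp and 4 jointly, and without Ctrl replicate 8 it was 0 in Both_10Cyp and 4 jointly. Without replicate 5 or 6 of Paternal_10Cyp that group had 4. Both_10Cyp had 0 without Ctrl replicate 9 or 12 or its own replicate 7 or 8, 1 without Ctrl replicate 11 or its own replicate 2, 5 without its own replicate 3 and 7 without Ctrl replicate 6. Non-additivity at dose 0.3 gave 1 without Ctrl replicate 6, and 3 and 4 without Paternal_0.3Cyp replicates 2 and 9.

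Turned log2 values under 2 surrogate variables were Cacng2 0.0336 in Paternal_0.3Cyp, 0.022 in Both_0.3Cyp and 0.0431 in Maternal_10Cyp, Gria1 0.0338 in Maternal_0.3Cyp, and Gria4 0.063 in Maternal_0.3Cyp, 0.0076 in Paternal_10Cyp and 0.0555 in Maternal_10Cyp. In Maternal_10Cyp they were also Prrt2 0.000396, Olfm1 0.0247, Nptx2 0.0387, Olfm3 0.146 and Adarb2 0.0769, and for non-additivity at dose 10 Gria4 -0.0726 and Cacng2 -0.0267. Under the marker ratio they were Cacng2 0.0316 in Paternal_0.3Cyp, 0.0263 in Both_0.3Cyp and 0.0162 in Maternal_10Cyp, Gria4 0.0495 in Maternal_0.3Cyp, 0.0303 in Maternal_10Cyp and -0.0214 for non-additivity at dose 10, and in Maternal_10Cyp Cpt1c 0.00546, Olfm3 0.053 and Adarb2 0.00501. Cacng1 in Maternal_10Cyp was -0.0895 with GC and length offsets, -0.11 with the block added and -0.00993 in batch 2 alone.

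Replicate numbers did not pair libraries: 210 pairs with the same number had a median r of 0.03 (-0.38 to 0.38), and 11 of 76 libraries were closest to their own number. With the replicate block Both_10Cyp had 1 member called, with GC and length offsets added also 1, and non-additivity at dose 10 then had 3.

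Cacng5 had the fewest counts of the members, 110 to 532 per library.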
